A study of Mus musculus with 2 samples.

Results

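Non-cycling regulatory T cells are described here as the T cells of the tumour-bearing mouse brain that carried Foxp3 RNA and little RNA of dividing cells. They were chosen cell by cell from unique molecular identifiers (UMIs, each standing for 1 captured RNA molecule). A member had at least 1 UMI of Cd3d, Cd3e or Cd3g, at least 1 of Foxp3, none of Cd8a or Cd8b1, at most 2 of Lyz2, at most 2 of C1qb and at most 1 of Mki67, Top2a and Birc5 together. Of 12478 kept cells, 383 met the rule, 157 of 3657 in the wild-type library and 226 of 8821 in the library labelled Fcgr2b knockout. Wild-type mice and mice labelled as knockouts of Fcgr2b, the inhibitory Fc receptor for IgG, had been inoculated with 100000 GL261 cells, a mouse glioma line. All mice of both groups received anti-PD-1, an antibody against an inhibitory receptor of T cells, at 200 ug into the peritoneum on days 10, 13 and 16. On day 20 the brains were taken, and CD45.2-positive, 7-AAD-negative cells, that is living leukocytes, were sorted from 5 pooled brains per group and run on a droplet 5' kit as 1 library per group. Neither group lacked tumour or anti-PD-1, and the age and the kind of Fcgr2b deletion are not given in the sources used here.

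Regulatory T cells are CD4 T cells whose program depends on the transcription factor Foxp3. They restrain other T cells by taking up interleukin-2 through the high-affinity receptor chain Il2ra (CD25), by removing costimulatory ligands from antigen-presenting cells with Ctla4, and by releasing or activating cytokines such as interleukin-10 and TGF-beta. Lrrc32 (GARP) tethers latent TGF-beta to their surface, and Ikzf2 (Helios) marks a stable, activated state. In gliomas and other tumours such cells accumulate and are counted among the populations that dampen the response to checkpoint antibodies.

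The marker genes of these cells span chrX:7573644-7595245 (Foxp3), chr2:11642807-11693193 (Il2ra), chr1:60887000-60915832 (Ctla4) and chr1:69531214-69687245 (Ikzf2) on GRCm38, exons and introns included. Promoter windows from RefSeq on GRCm38.p6, 250 bases before to 50 bases after the start, are shown for 3 of these 4 genes because Foxp3 chose the cells and Il2ra and Ctla4 are markers of their label. They run 5' to 3' on the plus strand at chrX:7579426-7579725 (the first of 2 Foxp3 entries), chr2:11642542-11642841 and chr1:60908775-60909074. Capitals mark GGAAA on either strand, the core that NFAT factors bind.
Foxp3: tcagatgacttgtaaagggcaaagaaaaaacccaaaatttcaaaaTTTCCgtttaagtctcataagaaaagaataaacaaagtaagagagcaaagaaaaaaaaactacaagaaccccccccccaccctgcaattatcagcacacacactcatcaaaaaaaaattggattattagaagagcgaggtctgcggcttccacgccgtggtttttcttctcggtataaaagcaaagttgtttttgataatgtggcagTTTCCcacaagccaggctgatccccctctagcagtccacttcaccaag
Il2ra: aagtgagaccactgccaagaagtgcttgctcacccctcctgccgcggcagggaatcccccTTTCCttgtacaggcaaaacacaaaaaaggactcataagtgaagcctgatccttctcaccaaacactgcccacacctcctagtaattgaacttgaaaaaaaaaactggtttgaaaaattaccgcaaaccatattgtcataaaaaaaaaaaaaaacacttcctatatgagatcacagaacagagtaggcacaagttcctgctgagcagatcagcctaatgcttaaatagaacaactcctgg
Ctla4: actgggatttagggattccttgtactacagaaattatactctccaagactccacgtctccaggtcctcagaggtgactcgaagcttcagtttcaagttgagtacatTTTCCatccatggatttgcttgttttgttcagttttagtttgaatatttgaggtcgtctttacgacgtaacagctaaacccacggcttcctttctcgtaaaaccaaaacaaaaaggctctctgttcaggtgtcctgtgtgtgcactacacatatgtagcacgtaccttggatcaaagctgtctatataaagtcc
The core occurred 2 times in the Foxp3 window and 1 time in each of the others, and 61.3% of 32851 mouse promoter windows of 300 bases held it, so its presence is a description of these letters. The forkhead motif GTAAACA, found in 3.65% of windows, and the STAT motif TTCNNNGAA, found in 8.30%, were in none of the 3 windows shown. The second Foxp3 entry, at chrX:7580233-7580532 and not printed, held 1 match of the STAT motif and 1 of GGAAA. Both strands were searched, and with 0 matches of the latter 2 motifs no motif overlapped another in the windows shown.

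The defining markers were present. Ikzf2 UMIs were found in 140 of the 157 wild-type members (89.2%) and 209 of the 226 knockout members (92.5%). Il2ra was found in 117 (74.5%) and 164 (72.6%), and Ctla4 in 123 (78.3%) and 200 (88.5%). All 3 were found together in 87 members (55.4%) of the wild-type and 146 (64.6%) of the knockout library, and none of them in 4 and 6. In B cells, which should lack them, the same genes had a UMI in 2.70 to 6.76% of cells of the wild-type library and in at most 7.26% of cells of the knockout library. The median depth of those B cells was 2079.5 and 3315.5 UMIs, against 3211 and 3390 in the members. Foxp3 itself, which chose the cells, was at 1 UMI in 67 wild-type and 102 knockout members, at 2 in 41 and 70, and at 3 to 8 in 49 and 54. Of the cells that met every criterion but Foxp3, 748 and 1011 stood just outside with 0 Foxp3 UMIs. At the cycling limit, 28 and 48 members had 1 UMI of the 3 genes, and 8 and 14 Foxp3-positive cells stood just outside with 2. Cd4 UMIs, which the rule did not ask for, were found in 75 and 114 members.

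The 2 libraries differed in depth, with a median of 2686 UMIs per kept cell in the wild-type and 4224 in the knockout library. Members held 619323 and 1015046 UMIs in all. The libraries shared 46 cell barcodes over all cells and 0 among members. Fcgr2b gave 19 UMIs (30.7 CPM, counts scaled to the same total) in the wild-type members and 18 UMIs (17.7 CPM) in members of the library labelled Fcgr2b knockout. The deleted part of the gene is not given, so these UMIs do not check the label. Without barcodes that carried UMIs of other lineages Fcgr2b was at 0 UMIs in wild-type and 18.7 CPM in knockout members. With 1 library per genotype no test between libraries could be made, so genotype and library cannot be told apart. Intervals are exact, at 95%, and cover counting error only.

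The members took a smaller share of all leukocytes in the knockout library and a near-equal share of a pool with Cd4-positive Foxp3-negative T cells. They were 4.29% of kept cells in the wild-type library (157 cells, interval 3.66 to 5.00%) and 2.56% in the knockout library (226 cells, 2.24 to 2.91%), a ratio of 0.597 (0.485 to 0.736). Cells left out of the members only for a Cd8 UMI numbered 24 in the wild-type and 82 in the knockout library. Those left out only for Lyz2 numbered 4 and 17. The ratio depends on these limits, and it was not recomputed with those cells. Macrophages and monocytes differed between the libraries (278 and 2039 cells), and outside them the members took 4.65% and 3.33%, a ratio of 0.717 (0.582 to 0.885). Of gated T cells they were 9.56% and 6.92% (ratio 0.725, 0.588 to 0.894). Among Foxp3-positive and Cd4-positive Foxp3-negative T cells as 1 pool, the former made up 33.5% (157 of 469) and 33.2% (226 of 681), with a ratio of 0.991 (0.805 to 1.22). A Cd4 UMI was asked for in the latter cells only, and just 75 and 114 members had one. Of the 748 and 1011 cells that lacked only Foxp3, 312 and 455 entered the pool. These percentages are therefore not shares of all CD4 T cells. Depth bears on a share set by 1 UMI. With every cell thinned to 1000 UMIs, 363 and 344 shallower cells were left out and 71 and 110 members found. The ratios were then 0.602 of kept cells, 0.673 of gated T cells and 1.01 of that pool. Foxp3-positive cells above the cycling limit numbered 39 and 86, or 19.9% (14.5 to 26.2%) and 27.6% (22.7 to 32.9%) of Foxp3-positive cells. The interval of that ratio, 1.39 (0.938 to 2.08), included 1, and those cells had a median of 11110 and 10401.5 UMIs.

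To see what the members carried beyond Foxp3, their summed RNA was set against that of 312 wild-type and 455 knockout T cells with a Cd4 UMI and no Foxp3 UMI. Since Foxp3 divided the cells, these values describe the members and no test was made. A cell with 0 Foxp3 UMIs can still have held Foxp3 RNA that was not captured. Members with just 1 Foxp3 UMI numbered 67 and 102, and thinning to 1000 UMIs found 71 and 110 members. How many of the Foxp3-negative cells were regulatory T cells was not tested. Log2 ratios are given with 10 CPM added to each side, and a gene is counted as different at 2-fold. In both libraries 64 of 3163 genes were at least 2-fold higher in the members (2.02%) and 47 were at least 2-fold lower (1.49%), and the medians over all genes were 0.06 and 0.09. TMM scaling shifted these medians to -0.05 and -0.06. The list counts below stand beside the shares of 2.02% and 1.49%, though lists took genes from 10 CPM and those shares from 50 CPM.

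The members stood out by surface receptors and transcription factors of the regulatory program. Of 16 measured genes of the identity list, 8 were at least 2-fold higher in both libraries and 1 was lower, with a list median of 1.08 in the wild-type and 0.97 in the knockout library. Ikzf2 was at 1371 CPM in wild-type members against 254 CPM in Foxp3-negative cells, and at 1272 against 255 CPM in the knockout library, 5.41-fold (4.75 to 6.16) and 4.99-fold (4.52 to 5.51) higher. Lrrc32 was at 381 and 161 CPM against 33.8 and 21.4 CPM, the highest ratio of the genes named by rank. Il2ra was at 988 and 886 CPM against 285 and 291 CPM. For none of these 3 genes did the counting intervals of the groups overlap in either library. The share of all genes with intervals apart is not given here, so this describes these genes only. Ikzf4, an Ikaros-family partner of Foxp3, was at 157 and 124 CPM against 42.4 and 30.1 CPM, and the folate-receptor-like Izumo1r (FR4) at 404 and 376 CPM against 146 and 120 CPM. Itgae (CD103), the integrin chain that binds E-cadherin, was at 128 and 52.2 CPM against 8.64 and 9.17 CPM. The interleukin-33 receptor Il1rl1 and the costimulatory receptor Tnfrsf18 (GITR, at 781 and 743 CPM against 360 and 350 CPM) were the other 2 of the 8. Ctla4 was also found in the cells without a Foxp3 UMI and differed less, at 1427 and 1281 CPM against 923 and 698 CPM. Nrp1, a semaphorin receptor often used as a marker of thymus-derived regulatory T cells, was the list member that was lower, at 53.3 and 39.4 CPM against 195 and 169 CPM.

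**Figure D1:**
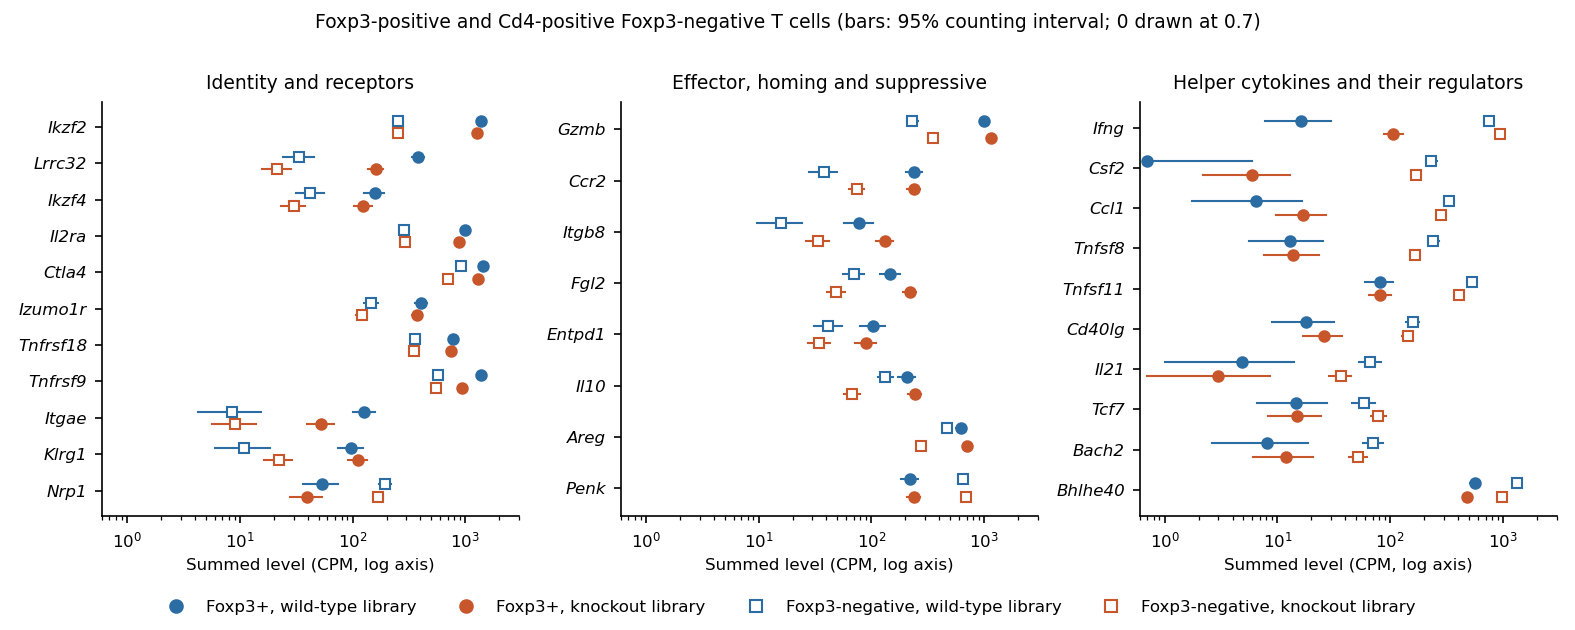
Summed levels of selected genes in Foxp3-positive cells (filled circles) and Cd4-positive Foxp3-negative T cells (open squares) of the wild-type (blue) and knockout (orange) libraries, in CPM on a log axis with 95% counting intervals. Ikzf2, Lrrc32 and Il2ra lie to the right in Foxp3-positive cells of both libraries, whereas Ifng, Csf2, Ccl1 and Nrp1 lie to the left.

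Effector and suppressive genes were partly shared with the cells in which no Foxp3 UMI was found. Of 15 measured suppressive molecules, 4 were at least 2-fold higher in both libraries (Gzmb, Entpd1, Lrrc32 and Itgb8) and 1 was lower (Penk), with list medians of 0.62 and 1.14. Gzmb, the protease granzyme B, was at 987 and 1137 CPM in members, against 231 and 353 CPM in Foxp3-negative and 1718 and 1654 CPM in Cd8-positive T cells. Its level in members therefore lay between those of the other 2 T cell groups in both libraries. Itgb8, an integrin chain that frees TGF-beta, was at 77.5 and 132 CPM against 15.7 and 33.6 CPM. Entpd1 (CD39), which breaks down extracellular ATP, was at 103 and 89.7 CPM against 41.6 and 34.5 CPM. Il10 was at 207 and 241 CPM against 133 and 67.3 CPM, so that its fold was 1.56 (1.23 to 1.97) in the wild-type and 3.59 (2.92 to 4.42) in the knockout library. The epidermal growth factor family member Areg was at 625 and 702 CPM against 468 and 276 CPM, 1.34-fold and 2.54-fold higher. For Il10 and Areg the members were near each other and the Foxp3-negative cells were lower in the knockout library. Penk, which encodes enkephalin peptides, was at 218 and 237 CPM against 650 and 689 CPM.

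Homing receptors set the members apart as well. Of 19 measured chemokine and homing receptors, 5 were at least 2-fold higher in both libraries, among them Ccr2, Itgae and Itgb7, and 1 was lower (Itgb1), with medians of 0.37 and 0.25. Ccr2, the receptor that draws cells to CCL2, was at 239 and 237 CPM against 37.7 and 73.8 CPM. Itgb7, the integrin chain that pairs with Itgae, was at 365 and 348 CPM against 124 and 141 CPM. Klrg1, a receptor of highly differentiated effector cells, was at 96.9 and 111 CPM against 11 and 22.3 CPM. Among the genes ranked highest, Arl5a was at 473 and 440 CPM against 119 and 125 CPM, and Snx9, an endocytic sorting nexin, at 115 and 142 CPM against 32.2 and 34.9 CPM.

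Most measured genes of the interferon response were higher in the members, few of them by 2-fold in both libraries. Over all genes at 50 CPM or more 2.02% were that much higher in both. Taken alone, the wild-type library had 6 of 16 interferon-gamma and 4 of 16 type I genes past 2-fold. The knockout library had 2 of 16 and 3 of 17. The interferon-gamma list had medians of 0.78 and 0.71 over 16 genes, with 15 and 16 above 0, and 2 (Gbp3 and Iigp1) at least 2-fold higher in both libraries. Iigp1, a GTPase that acts on vacuoles of pathogens, was at 179 and 90.6 CPM in members against 25.1 and 26.2 CPM. The type I interferon list had medians of 0.62 and 0.67, or 0.89 and 0.45 without barcodes with UMIs of other lineages, and 1 of 16 genes (Isg20) passed 2-fold in both libraries.

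Several cytokines of helper T cells were much lower in the members. Of 12 measured helper cytokines and chemokines, 7 were at least 2-fold lower in both libraries and 0 were higher, with medians of -1.93 over 16 genes in the wild-type and -1.46 over 12 in the knockout library. Ifng was at 16.1 CPM (10 UMIs) in wild-type members against 751 CPM in Foxp3-negative cells, and at 106 CPM (108 UMIs) against 940 CPM in the knockout library, which is 46.5-fold and 8.83-fold lower. Free RNA could give 4.44 and 5.38 CPM of it. Csf2 (GM-CSF) had 0 UMIs in wild-type members and 6 in knockout members (5.91 CPM), against 232 and 168 CPM. Set against 3 counts, the first of these is at most 0.0209 of the Foxp3-negative level. The chemokine Ccl1 was at 6.46 and 16.7 CPM against 331 and 282 CPM, Tnfsf8 (CD30 ligand) at 12.9 and 13.8 CPM against 241 and 165 CPM, and Tnfsf11 (RANKL) at 80.7 and 81.8 CPM against 528 and 409 CPM. Cd40lg, by which helper cells activate B cells and antigen-presenting cells, was at 17.8 and 25.6 CPM against 158 and 143 CPM. Each of these genes was lower in the members of both libraries. Lgals7, Ece1, St6gal1 and Tbc1d4 completed the 10 lowest, with log2 ratios between -2.48 and -1.83.

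Of 30 measured transcription factors, 2 were at least 2-fold higher (Ikzf2 and Ikzf4) and 4 were lower (Bach2, Tcf7, Bhlhe40 and Bcl6) in both libraries. Tcf7, which keeps T cells in a stem-like or resting state, was at 14.5 and 14.8 CPM against 58.1 and 78.6 CPM. Bhlhe40, which promotes cytokine production by helper T cells, was at 565 and 479 CPM against 1314 and 982 CPM. Bach2 and Bcl6, both repressors, were at 8.07 and 11.8 CPM against 70.7 and 52.0 CPM, and at 12.9 and 12.8 CPM against 41.6 and 37.1 CPM. Maf, which drives Il10 in T cells, was at 1083 and 848 CPM against 612 and 323 CPM.

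Some genes that seemed to mark the members came from a few barcodes. MHC class II genes, which present antigen on professional antigen-presenting cells, were higher than in Foxp3-negative cells, with H2-Aa at 903 and 980 CPM against 342 and 276 CPM. H2-Eb1 ranked among the 10 highest genes. But 16 wild-type and 12 knockout members with 10 or more UMIs of H2-Aa, H2-Ab1, H2-Eb1 and Cd74 held 98.0% and 92.7% of these UMIs, and in the other members H2-Aa was at 4.03 and 47.9 CPM. Their median depth was 7058 and 11608 UMIs, and 9 and 8 of all members were among the doublet-scored cells. Markers of dendritic cells summed to 134 and 222 CPM in members, with 68.7% and 74.2% of the UMIs in 3 cells and 1 and 0 of 7 markers at 0. Macrophage and monocyte markers summed to 121 and 166 CPM (4 and 2 of 12 at 0), B cell markers to 3.23 and 10.8 CPM (4 and 4 of 6 at 0) and neutrophil markers to 132 and 9.85 CPM (0 and 2 of 5 at 0). NK cell markers summed to 33.9 and 4.93 CPM (1 and 3 of 5 at 0) and gamma-delta T cell markers to 8.07 and 22.7 CPM (1 and 0 of 3 at 0). T cell markers summed to 2960 and 3438 CPM with none at 0, but they include Cd3d, Cd3e and Cd3g, of which the rule asked for a UMI. The rule also capped Lyz2 and C1qb, which are among the macrophage markers, and set Cd8a and Cd8b1 at 0. These sums are therefore partly fixed by the rule. Barcodes with UMIs of other lineages were picked partly by these MHC class II UMIs, so leaving them out lowers H2-Aa by the choice itself. Without those 25 wild-type and 12 knockout barcodes, the log2 ratio of H2-Aa over Foxp3-negative cells was -0.0080 and -0.19. Of the identity list, 8 genes were then still at least 2-fold higher in both libraries, and 69 and 61 genes passed in each direction over all genes.

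To see how the 2 libraries differed within these cells, the summed RNA of the 157 and 226 members was compared. Of 16 measured identity genes, 3 were higher in the knockout library, 1 of them (Tigit) at least 2-fold, and 2 (Lrrc32 and Itgae) were at least 2-fold lower, with a median of -0.23. Several of the best-known members were near in both libraries. Ikzf2 was at 1371 and 1272 CPM, Il2ra at 988 and 886 CPM, Ctla4 at 1427 and 1281 CPM, Tnfrsf18 at 781 and 743 CPM and Icos at 1250 and 1398 CPM, with log2 ratios (knockout over wild-type library) between -0.16 and 0.16. In members with 1 Foxp3 UMI, Il2ra was at 764 and 796 CPM and Ctla4 at 1126 and 1305.5 CPM. With 3 or more they were further apart, at 1176 and 722 CPM and at 1791 and 1288 CPM. Foxp3, set above 0 by the rule in every member, was at 575 and 438 CPM. Of 3632 genes at 50 CPM or more in either library, 38 were at least 2-fold higher in the knockout library (1.05%) and 62 at least 2-fold lower (1.71%), around a median of -0.04. With TMM scaling the split was 48 and 42 genes around 0.05, and without the barcodes with UMIs of other lineages it was 56 and 69. With at least 2 Foxp3 UMIs asked for, 83 genes were past 2-fold in each direction. The 62 included the ribosomal protein genes Rps28 (4224 and 1945 CPM), Rps29 (5089 and 2492 CPM) and Rpl38 (4075 and 2013 CPM), and the 38 included the mitochondrial mt-Atp8 (85.6 and 402 CPM). The labels give polyA RNA for the wild-type and total RNA for the other library, which cannot be told apart from genotype.

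**Figure D2:**
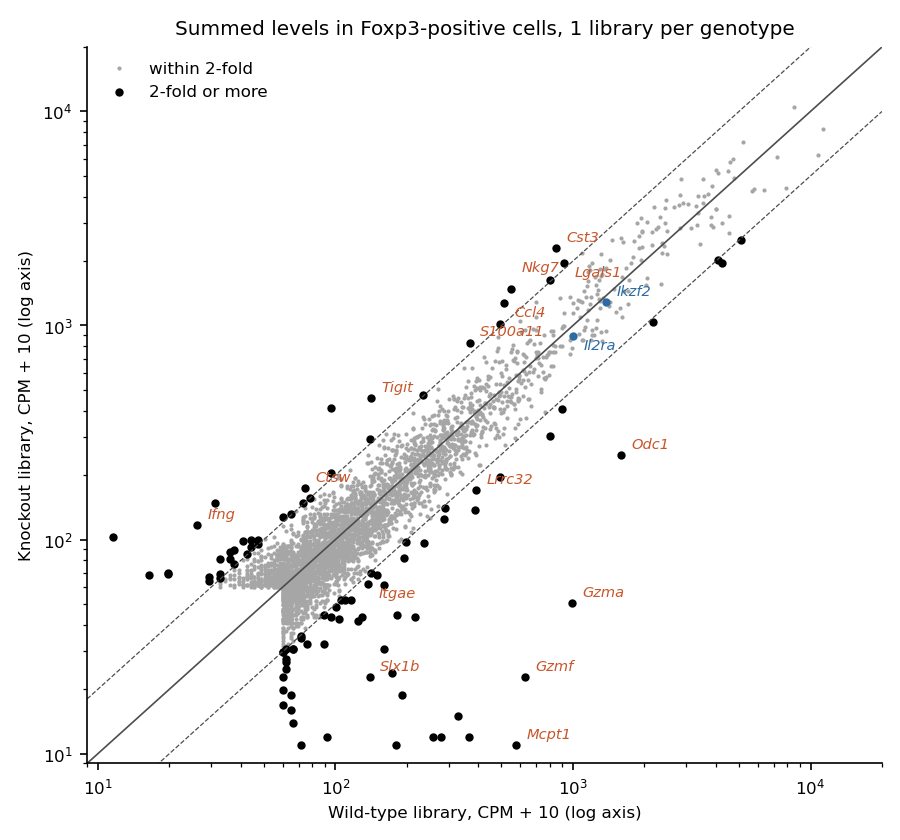
Levels of the 3632 genes in Foxp3-positive cells of the wild-type (x axis) and knockout (y axis) libraries, in CPM plus 10 on log axes, with equal levels as the solid line and 2-fold as dashed lines. Ikzf2 and Il2ra lie near the solid line, Tigit and Nkg7 above the upper dashed line, and Odc1, Lrrc32 and the genes that came from a few cells below the lower one.

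Tigit, Nkg7, Ctsw, S100a10, S100a11 and Lgals1 were at least 2-fold higher in the knockout members, while the lists they belong to went both ways. Tigit, an inhibitory receptor for poliovirus-receptor ligands (chr16:43648867-43664146), was at 131 CPM in the wild-type and 447 CPM in the knockout library, 3.42-fold higher (2.69 to 4.39). It had a UMI in 38.9% and 73.0% of members, and in 9.74% and 38.5% after thinning to 1000 UMIs, against 2.70% and 1.61% of B cells. Without barcodes with UMIs of other lineages its log2 ratio was 1.58, beside 1.70 with them. The same ratio was 1.24 in Foxp3-negative and 1.20 in Cd8-positive T cells. Nkg7, a granule membrane protein (chr7:43437073-43438249), was at 539 and 1478 CPM, 2.74-fold higher (2.43 to 3.09), with ratios of 0.94 and 0.66 in the other 2 T cell groups. Ctsw, a cathepsin of cytotoxic lymphocytes, was at 64.6 and 165 CPM (log2 1.23), where Foxp3-negative and Cd8-positive cells gave 0.18 and -0.15. Gzmb and the perforin gene Prf1 were close, at 987 and 1137 CPM and at 85.6 and 70.9 CPM. S100a11 was at 357 and 823 CPM, S100a10 at 793 and 1618 CPM and Lgals1 (galectin-1) at 907 and 1957 CPM. Their ratios of 1.18, 1.02 and 1.10 stood beside 1.14, 1.07 and 0.86 in Foxp3-negative cells. Whether any gene differed more in the members than in other T cells was not tested.

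Among helper cytokines and chemokines, Ifng, Ccl3, Ccl4 and Ccl5 were higher in the knockout members. Over 10 measured genes the list median was 0.86, with 5 at least 2-fold higher (Ifng, Il2, Ccl3, Ccl4 and Ccl5) and 1 lower (Il17a, 8 and 0 UMIs). Over all genes at 50 CPM or more, 1.05% were higher and 1.71% lower. Ifng, at 16.1 and 106 CPM, had a ratio of 6.59 (3.45 to 14.1) and a UMI in 5 wild-type and 42 knockout members. After thinning, 1.95% and 4.13% of members had an Ifng UMI, beside 0.746% and 1.53% of macrophages and monocytes thinned alike. The log2 ratio of 2.15 was 0.32 in Foxp3-negative and 0.56 in Cd8-positive cells. Ccl4, an inflammatory chemokine, was at 502 and 1267 CPM (log2 1.32), and 1 knockout cell held 406 of its 1286 UMIs. Without the cell richest in Ccl4 of each library the ratio was 1.14. Ccl5 was at 481 and 1006 CPM, beside free RNA of 23.2 and 51.6 CPM, and its ratio was 1.05 in the members, 1.32 in Foxp3-negative and 1.32 in Cd8-positive cells. Without barcodes with UMIs of other lineages Ccl5 was at 252 and 618 CPM (ratio 1.26). Its level was highest in members with just 1 Foxp3 UMI. With 1, 2 and 3 or more it was at 859, 188 and 308 CPM in the wild-type library. The knockout library had 1411, 835 and 604 CPM. The 12 Il2 UMIs of the knockout members all came from 1 cell. Tbx21 (T-bet), the transcription factor behind Ifng, was at 37.1 and 76.8 CPM (23 and 78 UMIs), and Ccr8, a chemokine receptor of tumour regulatory T cells, at 32.3 and 75.9 CPM (20 and 77 UMIs). Rexo2, an oligonuclease, and the unnamed gene CAAA01147332.1 were also among the 10 highest, at 85.6 and 194 CPM and at 21 and 138 CPM. The latter had similar ratios of 2.25 in members, 2.13 in Foxp3-negative and 1.94 in Cd8-positive cells.

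Lrrc32 and Itgae were lower in the knockout members. Lrrc32 (chr7:98489283-98502181) was at 381 CPM (interval 334 to 433) in the wild-type and 161 CPM (137 to 187) in the knockout library, 2.37-fold lower. A UMI was found in 59.9% and 42.5% of members and, after thinning, in 26.6% and 17.0%. The log2 ratio was -1.20 in members, -0.48 in Foxp3-negative and -0.54 in Cd8-positive cells. Itgae (chr11:73090583-73147446) was at 128 CPM (101 to 159) and 52.2 CPM (39.1 to 68.3), or 79 and 53 UMIs, with a ratio of -1.14 in members, 0.04 in Foxp3-negative and 0.44 in Cd8-positive cells. Counting intervals of neither gene overlapped between the libraries, and the share of all genes with intervals apart is not given here. Without the barcodes with UMIs of other lineages the ratios of Lrrc32 and Itgae were -1.19 and -1.04. Il1rl1 was at 239 and 116 CPM (ratio -0.98), the transcription factor Gata3 at 218 and 122 CPM (-0.79), Irf4 at 202 and 103 CPM (-0.90) and Klf2, a factor of resting T cells, at 331 and 193 CPM (-0.75). None of these 4 reached 2-fold. Tnfrsf4 (OX40) and Tnfrsf9 (4-1BB), costimulatory receptors of activated regulatory T cells, were at 1314 and 836 CPM and at 1364 and 930 CPM. Odc1 (chr12:17544794-17551505), the first enzyme of polyamine synthesis, was at 1589 and 238 CPM, 6.66-fold lower, and no wild-type cell held more than 45 of its 984 UMIs. Its ratio of -2.69 stood beside -2.15 in Foxp3-negative and -1.53 in Cd8-positive cells.

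The other 9 of the 10 lowest genes came from few wild-type cells. Gzma was at 977 and 40.4 CPM, but 1 wild-type cell held 565 of its 605 UMIs. In that library 1 cell also held 378 of 383 Gzmf UMIs, 164 of 166 of Gzmc and 111 of 112 of Gzmd. For the mast-cell proteases, 1 cell held 294 of 350 Mcpt1 UMIs, 145 of 219 of Tpsb2, 155 of 197 of Mcpt2, 87 of 153 of Mcpt4 and 71 of 105 of Cma1. Mast cell and basophil markers summed to 1300 CPM in wild-type and 11.8 CPM in knockout members (1 and 2 of 6 at 0), and 3 wild-type cells held 97.1% of the former. Without barcodes with UMIs of other lineages the ratio of Gzma turned from -4.29 to 1.73, that of Gzmf from -4.78 to 0.10, that of Gzmd from -3.34 to 0.66 and that of Mcpt2 from -4.46 to 0.13. Mcpt2 was among the genes that picked those barcodes, so its change was partly fixed by the choice. Cst3, a cystatin of phagocytes, was among the 10 highest at 841 and 2288 CPM. In the knockout library 4 cells held 80.3% of its UMIs, and without those barcodes its ratio of 1.43 became 0.10.

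**Figure D3:**
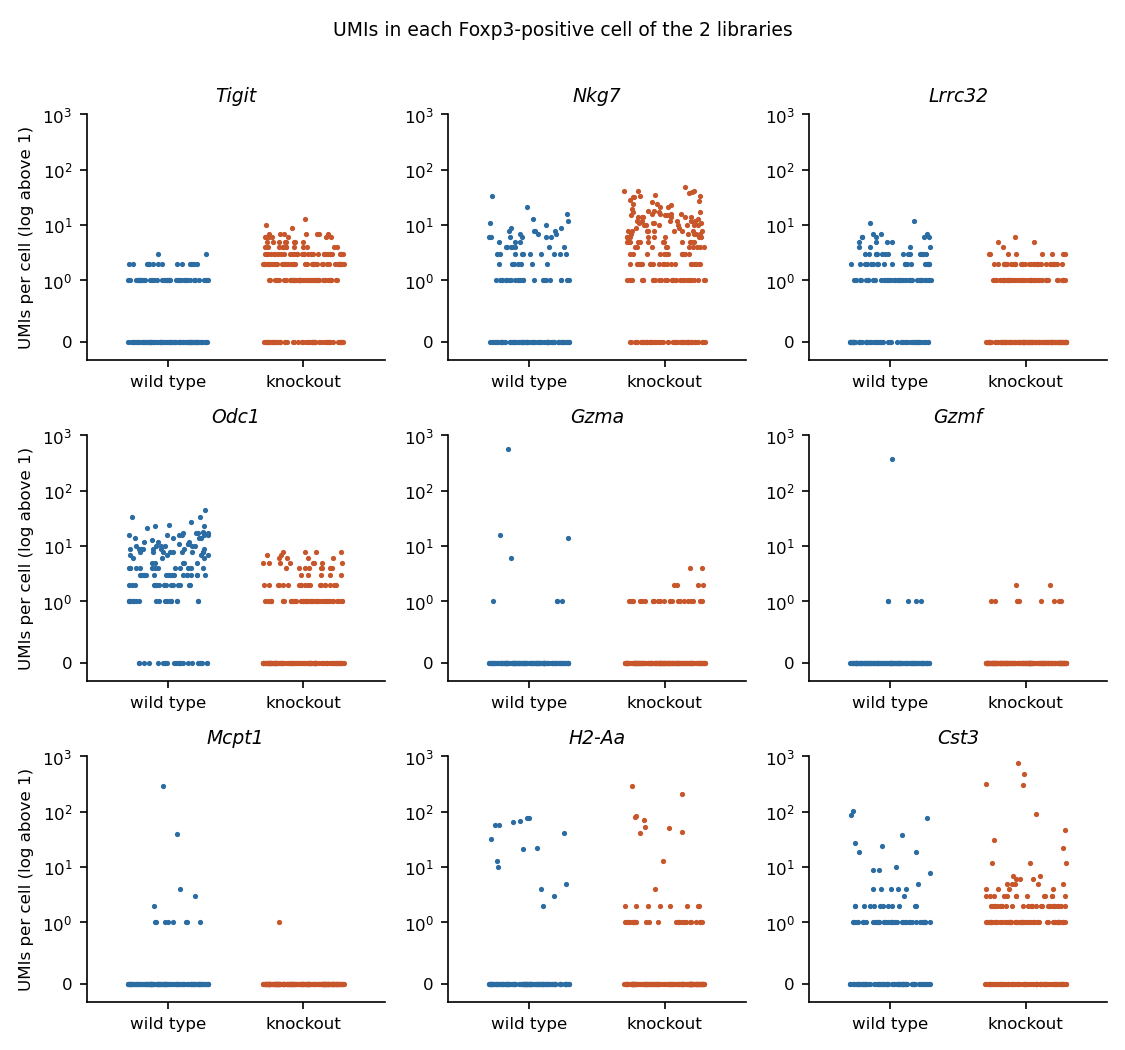
UMIs per cell of 9 genes, 1 point per Foxp3-positive cell (157 wild-type, blue, and 226 knockout, orange), on an axis that is linear to 1 and logarithmic above. Tigit, Nkg7, Lrrc32 and Odc1 are spread over many cells, whereas 565 Gzma, 378 Gzmf and 294 Mcpt1 UMIs lie in 1 wild-type cell each and H2-Aa and Cst3 in a few cells of both libraries.

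Genes near Fcgr2b on chromosome 1 differed in both directions. Fcgr2b lies at chr1:170958617-170976547 and the interferon-inducible Ifi200 genes nearby. Of 22 measured genes of this list, 2 were at least 2-fold higher in knockout members and 6 lower, with a median of -0.34. Over all genes, at 50 CPM or more rather than the 10 CPM of lists, 1.05% were higher and 1.71% lower. Without barcodes with UMIs of other lineages the list counts were 5 and 4 of 19. The 5 were Fcgr2b itself and Fcgr3 (each at 0 and 18.7 CPM), Ifi202b, Ifi204 and Aim2. The 4 were Ifi206, Ifi208, Ifi213 and Slx1b. Ifi202b (chr1:173962568-173982744) had 0 UMIs in the wild-type and 23 in the knockout library, at least 4.68-fold higher when set against 3 counts. Aim2, a sensor of cytosolic DNA (chr1:173350879-173466040), was at 25.8 and 77.8 CPM (16 and 79 UMIs). Ifi213 (chr1:173566283-173599274) had 23 and 1 UMIs. Slx1b, placed on chromosome 7 at chr7:126689468-126695784 and held in the same list, was at 129 and 12.8 CPM. In Foxp3-negative cells the ratios of Ifi202b, Ifi213 and Slx1b were 1.73, -1.87 and -2.30, close to 1.71, -2.10 and -2.61 in members, and in Cd8-positive cells they were 1.12, -2.65 and -2.06. Some Ifi200 genes are similar in sequence, and whether reads were split among them was not tested.

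Most of the other lists differed little between the libraries. Over all genes at 50 CPM or more, 1.05% were at least 2-fold higher in the knockout library and 1.71% lower. That share is not given for the 10 CPM limit of the lists. Against the median of -0.02 over all genes at 10 CPM or more, list medians were -0.23 for regulatory T cell identity (1 gene at least 2-fold higher, 2 lower, of 16), 0.07 for effector regulatory T cells (3 and 0 of 27; -0.07 without those barcodes), -0.28 for resting T cells (0 and 0 of 11) and 0.12 for suppressive molecules (0 and 1 of 15). Costimulatory receptors had 0.08 (0 and 0 of 11), and inhibitory receptors 0.44 (1 and 1 of 9). Interleukin-2 signalling had -0.24 (0 and 0 of 15), homing receptors -0.09 (1 and 2 of 18) and transcription factors -0.16 (0 and 1 of 30). The type I interferon list had 0.18 (1 and 0 of 17), and -0.17 without the barcodes with UMIs of other lineages. Medians were -0.08 for interferon-gamma (0 and 0 of 16), -0.15 for immediate-early and stress genes (0 and 0 of 19), 0.07 for replication genes (1 and 0 of 12) and -0.16 for glycolysis (0 and 0 of 16). Lipid and cholesterol synthesis had the lowest median, -0.59 over 13 genes, with 1 at least 2-fold lower, and -0.37 without barcodes with UMIs of other lineages. The S100 and galectin list had 0.22 (3 and 2 of 13), and the 2 lower genes, S100a8 and S100a9, are neutrophil genes whose UMIs in wild-type members came mostly from 1 cell (29 of 31 for S100a8). The cytotoxic list had -0.09 (2 and 3 of 10) and 0.18 without the barcodes with UMIs of other lineages, and the MHC class II list 0.07 (0 and 0 of 7) and 1.96 (3 and 0 of 5) without them.

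**Figure D4:**
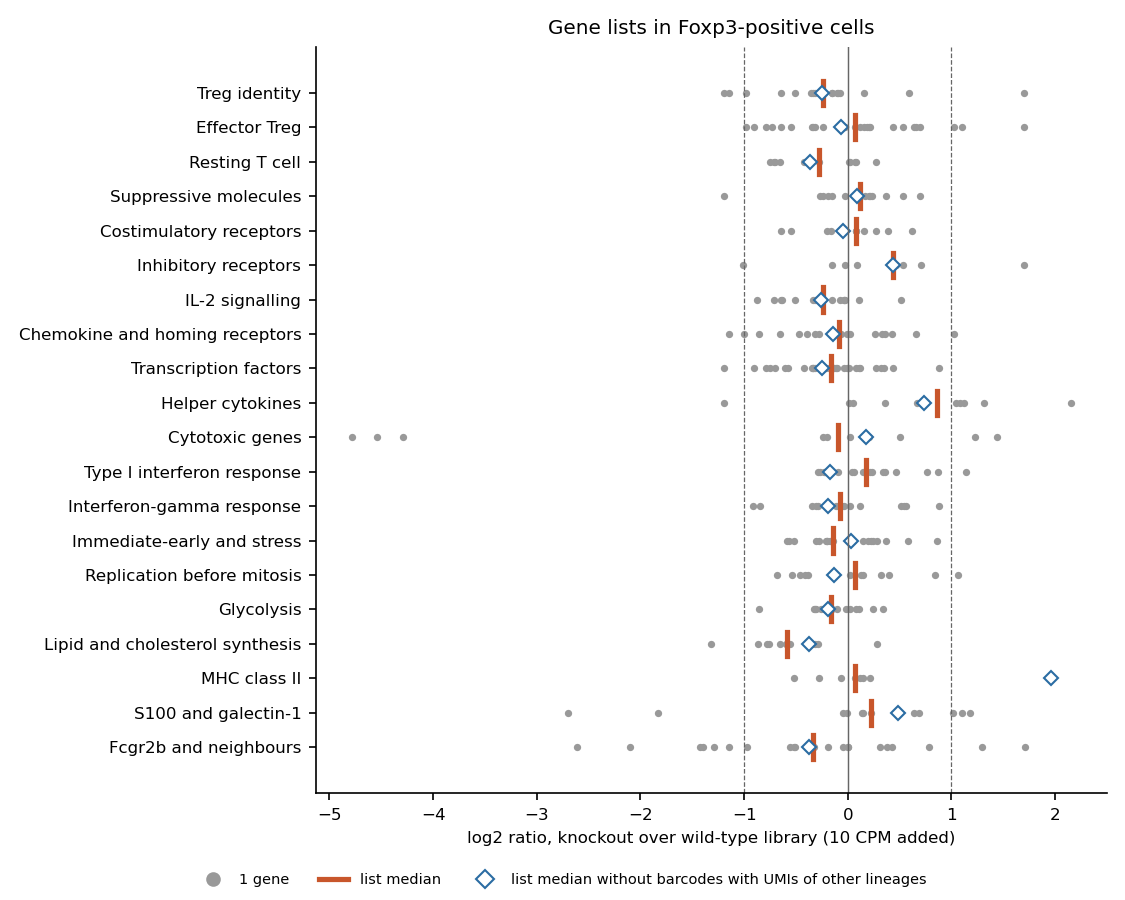
Log2 ratios of list members between the knockout and wild-type libraries in Foxp3-positive cells (grey points, 1 gene each), with the list median (orange bar) and the median without barcodes that carried UMIs of other lineages (open diamond). Helper cytokines have the highest median, 0.86. MHC class II moves from 0.07 to 1.96 when those barcodes, picked partly by MHC class II UMIs themselves, are left out.

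The members differed among themselves, and genes of resting T cells did not all go together. A UMI of Tnfrsf9 or Ccr8, receptors of activated tumour regulatory T cells, was found in 135 of 157 wild-type (86.0%, 79.6 to 91.0%) and 184 of 226 knockout members (81.4%, 75.7 to 86.3%). The 22 and 42 members without one were shallower, with a median of 2463 and 2010 UMIs against 3335 and 3909.5. Per count, members without a UMI of either gene carried more Klf2, at 778 CPM against 275 CPM with one in the wild-type and 518 against 157 CPM in the knockout library. S1pr1, the receptor by which T cells leave tissues and a target of Klf2, was at 130 against 23.6 CPM (9 and 13 UMIs) and at 48.9 against 25.2 CPM (5 and 23 UMIs). Ccr7, the lymph node homing receptor, went the other way, at 216 against 447 CPM and 48.9 against 289 CPM. Il7r was at 259 against 278 CPM and 264 against 294 CPM, and Satb1 at 288 against 522 CPM in the wild-type and 362 against 295 CPM in the knockout library. Itgae was at 231 against 115 CPM and at 127 against 43.8 CPM. The same members carried less Il2ra, at 288 against 1076 CPM and 440 against 936 CPM, and less Areg, at 43.2 against 698 CPM and 205 against 758 CPM. Nkg7 was at 173 against 586 CPM and at 694 against 1566 CPM. Ctla4 was at 995 against 1482 CPM in the wild-type library but at 1290 against 1280 CPM in the knockout library. These sums rest on few cells of 1 library each, and their spread over animals is not known.

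**Figure D5:**
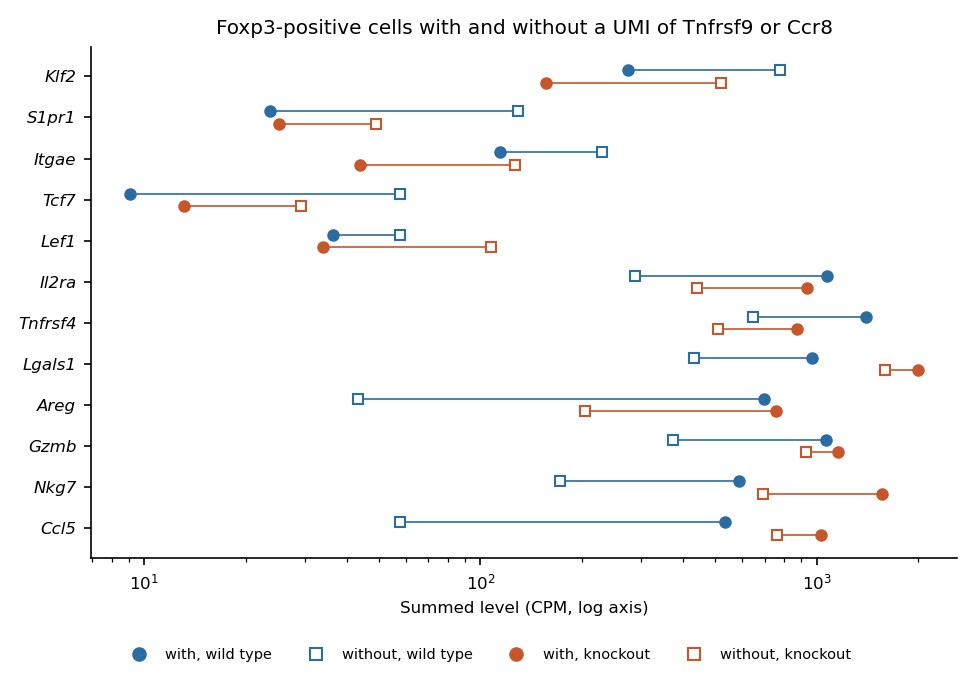
Levels in Foxp3-positive cells with (filled circles) and without (open squares) a UMI of Tnfrsf9 or Ccr8, in CPM on a log axis, for the wild-type (blue) and knockout (orange) libraries. Klf2, S1pr1 and Itgae are higher without these UMIs and Il2ra, Areg and Nkg7 higher with them in both libraries.

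The 17 members without an Ikzf2 UMI in each library were shallower, with a median of 1772 against 3437 UMIs and 2242 against 3424 UMIs. They carried less Il2ra per count, at 308 against 1059 CPM and 303 against 928 CPM, and less Lrrc32, at 68.3 against 414 CPM (4 and 232 UMIs) and 28.9 against 170 CPM (2 and 161 UMIs). Tcf7 was at 68.3 CPM against 8.92 CPM and at 86.6 against 9.52 CPM in the same split, from 4 to 9 UMIs on each side. Members were also split by 1, 2 and 3 or more Foxp3 UMIs. Lrrc32 was then at 263, 377 and 510 CPM in wild-type members (61, 64 and 111 UMIs). In knockout members it was at 135, 170 and 188 CPM (56, 53 and 54 UMIs). Median depth rose over the classes as well, from 2516 to 3785 and from 3053.5 to 4419 UMIs. Il2ra was at 764, 1054 and 1176 CPM in wild-type members but at 796, 1155 and 722 CPM in knockout members. In each of these 3 classes Lrrc32 was lower and Tigit higher in the knockout library (Tigit at 134, 112 and 142 CPM against 493, 393 and 440 CPM).

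The Foxp3-positive cells above the cycling limit, 39 and 86 in number, carried Ikzf2 (1169 and 1000 CPM) and Ctla4 (1140 and 1118 CPM) near the levels of the members. They had more Il2ra per count, at 1424 CPM in the wild-type and 1133 CPM in the knockout library, and less Lrrc32, at 122 and 77.0 CPM. Itgae was at 23.5 and 33.0 CPM there, against 128 and 52.2 CPM in the members. Their Tigit levels were 145 and 251 CPM (log2 0.75) and their Ifng levels 18.8 and 262 CPM.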

How the data were processed

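Members and gene lists were chosen with earlier results of these data known. The deposited values are raw UMI counts per gene and cell barcode, made by the authors with Cell Ranger 6.1.2 per the file headers, on mm10 (GRCm38) per the submitters' processing notes. The sources used here do not name the annotation release. Per the labels the tissue was brain, although the protocol for the sort speaks of lung. Kept barcodes had 200 or more genes and no more than 10% mitochondrial UMIs. No doublet caller was applied to the values reported. Removal of the highest Scrublet-type scores (0.8% per 1000 barcodes, 113 and 649 cells) was an alternative. Counts were summed over the members of each library and divided by the total (CPM). Shares carry Clopper-Pearson, levels exact Poisson and folds exact conditional intervals. Genes needed 50 CPM in 1 of the profiles compared, and list members 10 CPM. Free RNA was sized as the median ratio of 10 macrophage genes between members and all kept cells (1.58% and 1.66%). Macrophage or monocyte markers had a UMI in 13 wild-type and 104 knockout members. In each library 3 cells held 80% and 13.6% of those UMIs. The wild-type estimate, and the free RNA values drawn from it, therefore rest on few cells.

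Named were the 10 highest and 10 lowest genes of each comparison at 100 CPM or more, list members, gate genes and Fcgr2b. Mitochondrial, ribosomal protein, receptor and predicted genes were left out of the ranking. Rps28, Rps29, Rpl38 and mt-Atp8 were named after their values were seen, as were the barcodes with UMIs of other lineages (10 of MHC class II, 3 of mast cell, 3 of neutrophil, 2 of B cell or 1 of NK cell genes). Results for some genes are not reported here. With 1 library per genotype no p-value was computed. Gene positions came from GENCODE M21 (32235 of 32285 identifiers matched). Python 3.11.15, numpy 2.4.6, scipy 1.17.1, pandas 2.3.3 and edgeR 4.0.16 (TMM factors only) in R 4.3.3 were used, and the 2-fold count was tested on simulated counts.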

Additional observations from a re-analysis of the deposited data

Results flagged for a closer look

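For 3 genes the difference from Foxp3-negative T cells ran in opposite directions in the 2 libraries, by more than 2-fold each way. The difference between the libraries was not tested. The log2 ratio of Cxcl2, a neutrophil-attracting chemokine, was 1.36 in the wild-type and -1.07 in the knockout library, from 77 and 99 UMIs in the Foxp3-positive cells, and the latter was 0.11 without barcodes with UMIs of other lineages. That of Gzma was 4.11 and -1.43, and that of Gzmd 1.39 and -2.74, where 1 wild-type cell held 565 of 605 and 111 of 112 UMIs.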

How the results depend on the processing

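No paired analysis was possible because each genotype has 1 library, and for the same reason no replicate could be left out. Of 3492 recomputed gene and list values, 2973 stayed within the counting error, 485 moved beyond it, and 34 that had been past 2-fold changed sign. All ratios of shares stayed inside their intervals under the alternatives run. The numbers of genes past 2-fold moved as follows. Genes higher in the knockout library (38) became 83 with at least 2 Foxp3 UMIs, 79 with a Cd4 UMI, 63 with no cycling UMI, 65 with 1 CPM added, 10 with 50 CPM added, 19 among genes at 100 CPM and 109 with no minimum. Genes lower there (62) became 98 with a Cd4 UMI, 28 with 50 CPM added, 37 among genes at 100 CPM and 145 with no minimum. Against Foxp3-negative cells, the 64 higher genes became 20 and the 47 lower ones 25 with 50 CPM added, and the latter became 80 with no minimum.

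These 34 changes of sign were in granzyme, mast cell protease and MHC class II genes and Cxcl2. Between the libraries, asking for 2 Foxp3 UMIs gave log2 ratios of 0.084 for Tpsb2, 0.52 for Gzmf, 0.058 for Gzma, 0.22 for Cma1 and 0.74 for Gzmd. Asking for a Cd4 UMI gave 0.11 for Gzmf, 0.21 for Gzmc and 0.56 for Gzmd, and allowing no cycling UMI gave 0.13 for Gzmf and 0.54 for Gzmd. At most 5% mitochondrial UMIs gave 0.48 for Gzmf, 0.0045 for Gzmc, 0.085 for Gzma and 0.96 for Gzmd. The next 2 alternatives were chosen after seeing the data. The first picked barcodes partly by MHC class II and mast cell protease UMIs, so changes of those genes were partly fixed by the choice. Without barcodes with UMIs of other lineages the ratios were 0.10 for Gzmf, 0.13 for Mcpt2, 1.73 for Gzma, 0.16 for Cma1 and 0.66 for Gzmd. Without the cell richest in the gene they were 0.18 for Gzmf and 0.54 for Gzmd.

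Against Foxp3-negative cells of the wild-type library, Gzmd became -2.86 with 2 Foxp3 UMIs or a Cd4 UMI, -1.83 with no cycling UMI, -3.25 at 5% mitochondrial UMIs, -2.77 without barcodes with UMIs of other lineages and -2.35 without its richest cell. Gzma became -0.16 with 2 Foxp3 UMIs, -0.51 at 5% mitochondrial UMIs and -1.23 without those barcodes. Without them H2-Eb1 was -0.42 and H2-Aa -0.0080 in the wild-type library, and H2-Aa -0.19 and Cxcl2 0.11 in the knockout library. For genes under about 20 UMIs in a library the depth sets the precision, and the spread between animals is not known for any value.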
